A study of Phaseolus vulgaris with 2 samples.

Results

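Small heat shock proteins are chaperones with an alpha-crystallin domain that bind unfolding proteins without using ATP and hold them until ATP-dependent chaperones such as HSP70 and HSP101 refold them. In plants they are best known for their induction by heat, and separate nuclear genes encode forms for the cytosol, the chloroplast and the mitochondrion. In the common bean cultivar Pinto Saltillo, 3 such genes were followed by their identifiers, out of 27197 genes in the expression table. They are HSP21 (Phvul.009G046500), HSP23.6 (Phvul.011G016100) and the bean ortholog of Arabidopsis AT1G52560 (Phvul.010G155300), an HSP20-like chaperone. The study had placed all 3 among its genes lower under drought in these same libraries, so their direction is a description of the choice and supports nothing further.

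The study grew wild type Pinto Saltillo plants in a greenhouse on vermiculite with nutrient solution and sequenced poly(A) RNA of whole aerial tissue. Control plants stayed under irrigation, and drought plants, 45 days old at the start, went 2 weeks without it. Each pool held 6 to 9 plants, RNA was combined by condition, and the table gives 1 FPKM value (fragments mapped to a gene, corrected for transcript length and library size) per gene and condition, although the sample labels speak of 2 libraries per treatment. There was thus no replicate and no test, and an effect of drought cannot be told apart from any other difference between these 2 libraries, or from a change in the mix of cells in the tissue.

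Genes were taken as expressed when 1 library or both reached 1 FPKM, which held for 19661 genes and for all 3 small heat shock protein genes. The median FPKM over those genes was 11.6 in control and 11.5 in drought. As a check on the labelled tissue, the 148 expressed genes annotated with photosystem II assembly summed to 23277 FPKM in control and 31927 FPKM in drought, so photosynthetic tissue was represented in both libraries, and more of this signal was in the drought library. Its part in the results was not tested.

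HSP21 encodes the small heat shock protein of the chloroplast, which in Arabidopsis is needed for chloroplast development under heat. It lies on chromosome 9 from 8877172 to 8878789, in the coordinates of the deposited table. The level of HSP21 was 26.8 FPKM in control and 3.23 FPKM in drought, so that drought retained 12.1% of the control level. This was 8.29-fold lower on the FPKM values themselves, and −2.72 as the log2 ratio of drought FPKM + 1 over control FPKM + 1, the scale of every log2 ratio given here. It was the lowest log2 ratio of the 3 genes.

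The AT1G52560 ortholog, on chromosome 10 from 42427912 to 42429378, carries annotations to both the chloroplast and the mitochondrion. Its level was 23.8 FPKM in control and 3.51 FPKM in drought, or 14.8% of control. The difference was 6.78-fold on the FPKM values and −2.46 as a log2 ratio. In both libraries its level was close to that of HSP21.

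HSP23.6 encodes a small heat shock protein of the mitochondrion and lies on chromosome 11 from 1267957 to 1269043. Its level was 63.9 FPKM in control and 12.4 FPKM in drought, or 19.3% of control. The difference was 5.18-fold on the FPKM values and −2.28 as a log2 ratio, the smallest of the 3. HSP23.6 was nonetheless the most abundant of the 3 genes in both libraries.

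In control the order of levels was HSP23.6, HSP21 and the AT1G52560 ortholog, and in drought the last 2 changed places. Without replicates no spread can be set beside these levels, so neither the order of HSP21 and the AT1G52560 ortholog nor its change between libraries can be called. HSP23.6 stood at 2.38 times the level of HSP21 in control and at 3.82 times in drought. The log2 ratio of HSP23.6 was 0.43 above that of HSP21, and that of the AT1G52560 ortholog was 0.26 above it. Summed over the 3 genes, the level was 114.5 FPKM in control against 19.1 FPKM in drought, a 6.00-fold difference.

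All 3 genes were at least 4-fold lower in drought, the limit of size used here (a log2 ratio of −2 or below). Of all 19661 genes 1.62% were that much lower, and the median log2 ratio over all genes was −0.03. Since the study had called these genes lower, nothing is read from that count. Against the whole transcriptome, the log2 ratio of HSP21 was the 108th lowest, that of the AT1G52560 ortholog the 155th and that of HSP23.6 the 213th lowest.

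The genes also moved through the distribution of levels. In control HSP21 lay at the 72.1 percentile of the 19661 genes and the AT1G52560 ortholog at the 69.2 percentile, above the median gene. In drought they lay at the 19.3 and 20.7 percentiles. HSP23.6 went from the 87.8 percentile to the 52.1 percentile, close to the median gene of the drought library. In the plot of both libraries, HSP21 and the AT1G52560 ortholog lie almost together.

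**Figure D1:**
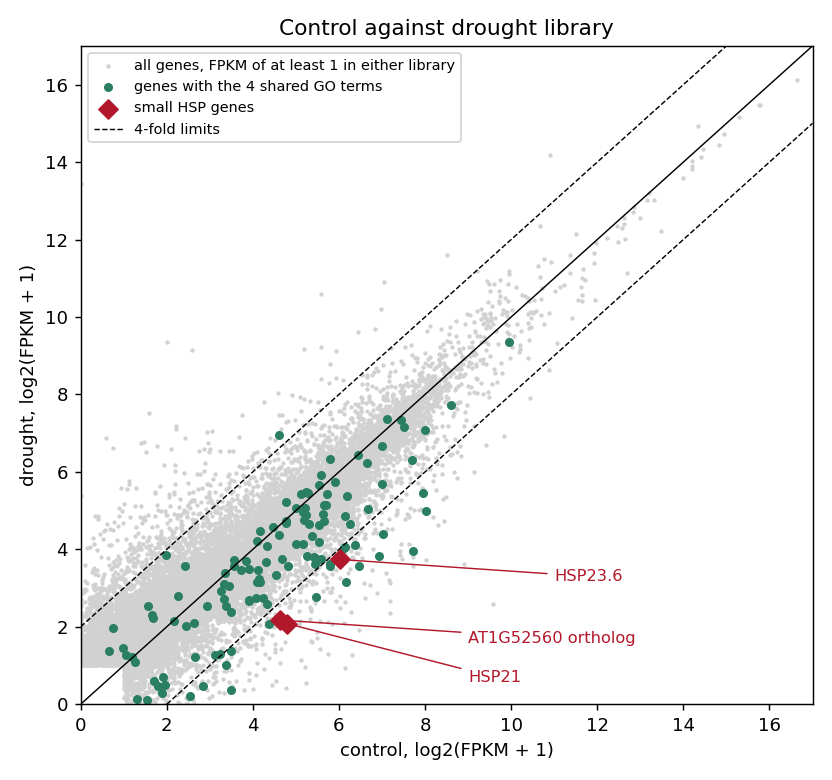
Level of each gene in control (x axis) and drought (y axis) as log2(FPKM + 1), 1 library each: grey points are the 19661 expressed genes, green points the other genes with the 4 Gene Ontology terms that the small heat shock protein genes share, and red diamonds the 3 genes. The solid line marks equal levels and the dashed lines 4-fold differences; all 3 diamonds lie below the lower dashed line, at log2 ratios of −2.72, −2.46 and −2.28.

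The Gene Ontology (GO) terms of the table show what the 3 have in common. The genes were picked as small heat shock proteins, so shared terms for protein folding and heat largely follow from that choice. HSP21 carries 6 terms, and HSP23.6 and the AT1G52560 ortholog carry 8 each. All 3 share exactly 4 terms, namely protein folding, response to heat, response to high light intensity and response to hydrogen peroxide. Heat acclimation is listed for HSP21 and the AT1G52560 ortholog but not for HSP23.6, which alone carries response to endoplasmic reticulum stress and response to cadmium ion. For compartments, HSP21 has chloroplast, HSP23.6 has mitochondrion and the AT1G52560 ortholog has both. These localizations are annotations and were not measured here.

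Response to heat was carried by 262 expressed genes. Ordered from the lowest log2 ratio, HSP21 was the 10th of them, the AT1G52560 ortholog the 14th and HSP23.6 the 20th. By control level they took lesser places in the term, with HSP23.6 at 59, HSP21 at 118 and the AT1G52560 ortholog at 126 from the highest. In drought they stood at 141, 214 and 208. Their control levels were nearer the middle of the term than their log2 ratios were. The low ratio ranks follow from choosing genes called lower, so nothing is read from this contrast.

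The lowest log2 ratio of the term was that of HSP70 (Phvul.011G065000), an ATP-dependent chaperone, at −3.76, with 209 FPKM in control and 14.5 FPKM in drought. MIPS2 (Phvul.002G261700), a myo-inositol-1-phosphate synthase, followed at −3.70, and HSP90.1 (Phvul.004G107700), another ATP-dependent chaperone, at −3.27. At the other end, the AT4G21870 ortholog (Phvul.006G150600), itself an HSP20 family gene, had the highest log2 ratio of the term at 3.36.

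**Figure D2:**
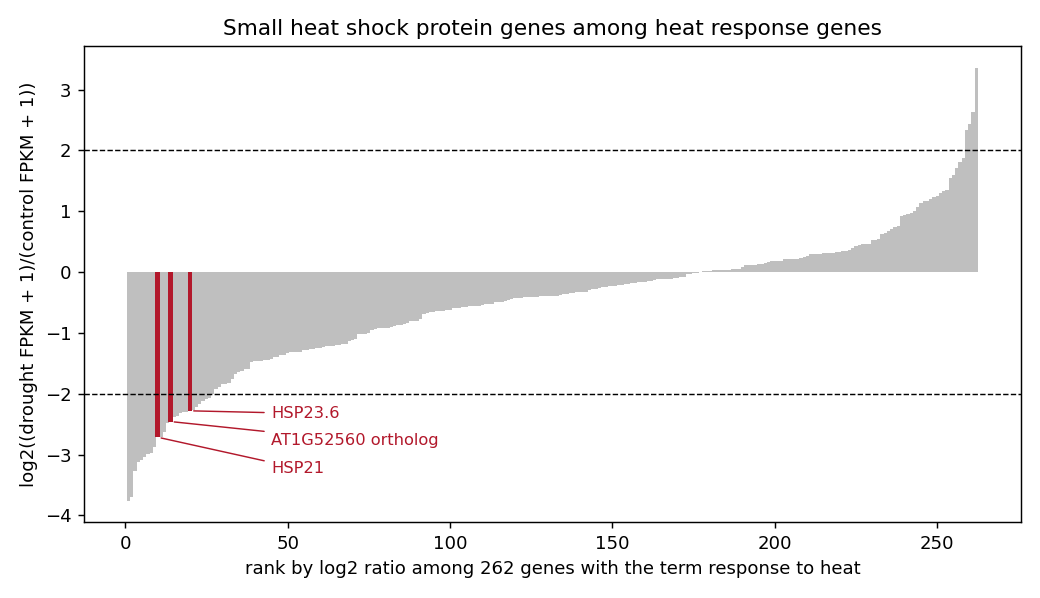
Log2 ratio of drought FPKM + 1 over control FPKM + 1 (y axis) of the 262 expressed genes with the term response to heat, ordered from the lowest (x axis), 1 bar per gene, with the small heat shock protein genes in red. Dashed lines mark 4-fold differences; the 3 red bars are the 10th, 14th and 20th from the left and lie beyond the lower line.

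Apart from the 3 genes, 24 of 259 genes of the term (9.27%) were at least 4-fold lower in drought and 4 were at least 4-fold higher, and their median log2 ratio was −0.39. Of the 24 lower genes, 10 are among 14 chaperones and regulators described further on, picked here from the genes the study had called lower. Counts without these listed genes can still hold other genes that the study called lower. Among the 248 genes of the term outside that list, 5.65% were at least 4-fold lower, with a median of −0.34. The comparable figures over all genes were 1.62% lower, 2.48% higher and a median of −0.03.

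Other terms of the 3 genes were arranged by how far their genes were lower. Without the 3 genes, 23 of 190 expressed genes for response to hydrogen peroxide (12.1%) were at least 4-fold lower, 9 of 78 for heat acclimation (11.5%) and 23 of 223 for response to high light intensity (10.3%). For response to endoplasmic reticulum stress it was 14 of 197 genes (7.11%), and for protein folding 21 of 320 (6.56%). For response to cadmium ion it was 14 of 502 (2.79%), with a median log2 ratio of −0.13, and for molecular_function, the root term, 58 of 3975 (1.46%), with a median of −0.02. Leaving out the listed genes as well gave 14 of 180 genes (7.78%) for response to hydrogen peroxide, 6 of 74 (8.11%) for heat acclimation and 14 of 213 (6.57%) for response to high light intensity. The shares were then 3.70% for response to endoplasmic reticulum stress, 3.88% for protein folding and 2.01% for response to cadmium ion. These terms share many genes and are not separate observations.

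The compartments as a whole were closer to the background. Of 3168 other chloroplast genes 1.80% were at least 4-fold lower, with a median log2 ratio of −0.04, and of 1870 other mitochondrial genes 1.34%, with a median of −0.12. Where chloroplast was joined with response to heat, 6 of 59 genes (10.2%) were at least 4-fold lower and the median was −0.62. For mitochondrion with response to heat it was 4 of 41 genes (9.76%) and a median of −0.40. The listed genes include 3 of the lower genes in each of these groups. Without the listed genes the counts were 3 of 56 (5.36%) for chloroplast with heat and 1 of 38 (2.63%) for mitochondrion with heat. Of chloroplast genes without the heat term 1.64% were at least 4-fold lower, and of mitochondrial genes without it 1.15%.

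The 4 terms that the 3 genes share were carried together by 148 genes, of which 125 passed the FPKM filter. Among those 125, HSP21 had the 7th lowest log2 ratio, the AT1G52560 ortholog the 11th and HSP23.6 the 16th. Of the other 122 genes, 19 were at least 4-fold lower (15.6%) and 1 was at least 4-fold higher, and the median log2 ratio was −0.75. Without the listed genes 113 remained, of which 11 (9.73%) were at least 4-fold lower, with a median of −0.62. Heat genes that lack at least 1 of the 4 terms had a median of −0.17, and 5 of 137 (3.65%) were at least 4-fold lower. Without the listed genes it was 3 of 135 (2.22%).

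Within the genes that carry all 4 terms, the 30 others with heat acclimation had a median log2 ratio of −1.27, and 8 were at least 4-fold lower. The 92 without it had a median of −0.58, and 11 were that much lower. Without the listed genes the counts were 5 of 26 with heat acclimation and 6 of 87 without it. These are 19.2% and 6.90% against 1.62% of all genes, and the medians were −1.06 and −0.43. HSP23.6 belongs with the latter group, and HSP21 and the AT1G52560 ortholog with the former. The 23 others annotated to the chloroplast alone had a median of −0.92 (5 at least 4-fold lower), the 14 to the mitochondrion alone −0.16 (3 lower), and the 5 to both −1.29 (1 lower). Of these lower genes, 2, 2 and 1 are listed genes. Without the listed genes 3 of 21, 1 of 12 and 0 of 4 were at least 4-fold lower. The 80 genes with neither compartment had a median of −0.63, and 10 were at least 4-fold lower. Without the listed genes it was 7 of 76 (9.21%), so lower genes were not confined to the organelle annotations. Each of the 3 genes lay below the median of its own compartment group. Since the study had called them lower, nothing is read from that position.

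Of the genes with the 4 terms, 4 of 27 with ATP binding (14.8%) and 15 of 95 others without it (15.8%) were at least 4-fold lower, and their median log2 ratios were −0.49 and −0.81. All 4 lower genes with ATP binding are listed genes. Without the listed genes the counts were 0 of 22 with ATP binding and 11 of 91 without it (12.1%). Of all genes 1.62% were that much lower, and the medians of the groups were −0.28 and −0.66. The 0 depends on the added 1. Unlisted Phvul.004G043900 (1.48 and 0.0987 FPKM) and Phvul.009G192500 (2.75 and 0.621 FPKM) carry ATP binding and were over 4-fold lower on the FPKM values. Some unlisted genes without ATP binding also passed 4-fold only on that scale. Median control levels, listed genes kept, were 9.9 FPKM with ATP binding and 31.3 FPKM without it, so nothing is read from these shares. None of the 3 small heat shock protein genes carries ATP binding. Together they made up 1.74% of the summed FPKM of the 125 expressed genes with the 4 terms in control and 0.519% in drought.

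**Figure D3:**
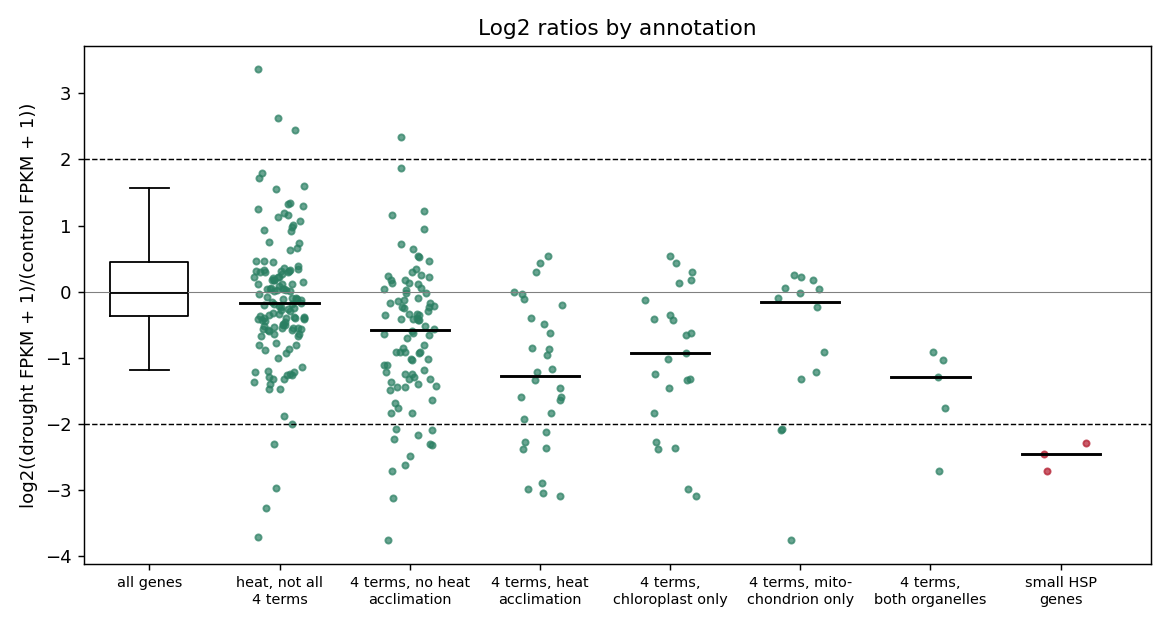
Log2 ratio of drought FPKM + 1 over control FPKM + 1 (y axis) by annotation (x axis), 1 point per gene and a bar at each median; for all genes the box gives the quartiles and median and the whiskers the 5th to 95th percentiles. The groups with the 4 terms leave out the 3 genes and overlap one another, and their medians run from −0.16 to −1.29. The 80 genes with the 4 terms and neither compartment are not drawn as a group of their own. The 3 small heat shock protein genes on the right lie at or below −2.28.

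The GO list of HSP21 is repeated in full by 2 other genes, both lower in drought. Phvul.006G046000 measured 121 FPKM in control against 13.3 FPKM in drought, with a log2 ratio of −3.09. Phvul.001G258200 measured 82.0 FPKM in control against 16.2 FPKM in drought, with a log2 ratio of −2.27. Both were more abundant than HSP21 in each library, and neither is given a name here because the sources used pair them with none.

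The GO list of HSP23.6 is repeated by its immediate neighbour Phvul.011G016200, on chromosome 11 from 1270147 to 1271173, which begins 1103 bases after HSP23.6 ends. The level of Phvul.011G016200 was 0.636 FPKM in control and 0.144 FPKM in drought, below 1 FPKM in both libraries, so it did not count as expressed. On those low values it was 4.42-fold lower, whereas its log2 ratio was −0.52 because of the added 1. Neighbouring genes of similar sequence can share short reads. The sequences of this pair were not compared, and whether reads were divided between them was not tested. No other gene has the GO list of the AT1G52560 ortholog.

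By log2 ratio the genes beside the 3 did not reach the limit of size. Over the 12 neighbours, taken as the 2 nearest genes on each side, the log2 ratio ran from −0.80 to 0.81, and none was 2-fold different on this scale. Response to heat was carried by 1 of the 12, namely Phvul.011G016200. Beside HSP21, Phvul.009G046700 was much more abundant, at 417 FPKM in control and 734 FPKM in drought.

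**Figure D4:**
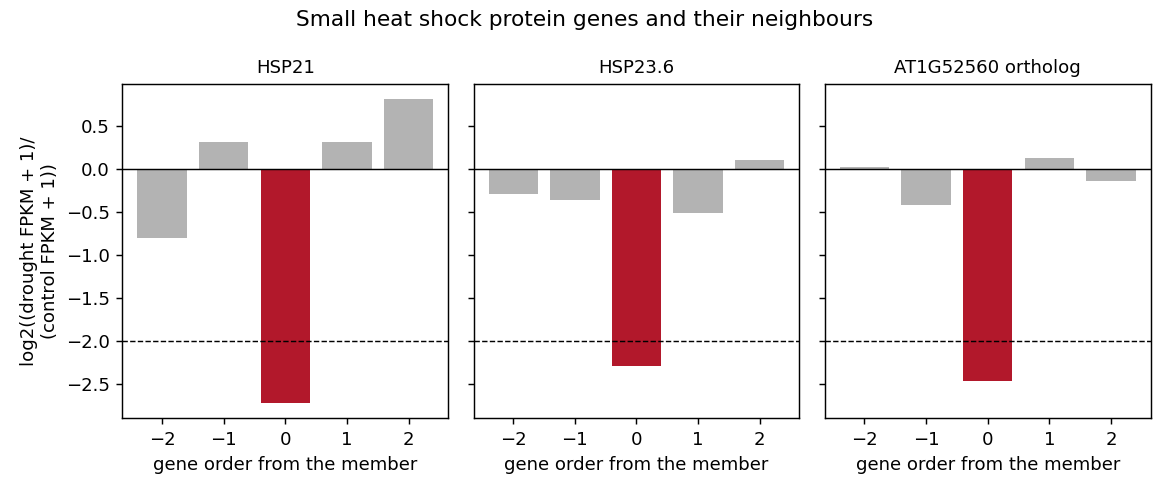
Log2 ratio of drought FPKM + 1 over control FPKM + 1 (y axis) of each small heat shock protein gene (red, position 0) and of the 2 nearest genes on either side in chromosome order (grey, x axis), 1 panel per gene. The dashed line marks a 4-fold lower level; the red bars lie at −2.72, −2.28 and −2.46, and the grey bars between −0.80 and 0.81.

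The other HSP20 genes that the study names were higher in drought, and all 3 of them come from its list of genes called higher in these libraries, so their direction too is fixed by the choice. ACD32 (Phvul.008G264700), an alpha-crystallin domain gene annotated to the peroxisome, measured 24.3 FPKM in control against 136 FPKM in drought, with a log2 ratio of 2.44. The AT4G21870 ortholog, described as a class V heat shock protein, measured 1.76 FPKM in control against 27.3 FPKM in drought, 15.5-fold higher. The AT2G27140 ortholog (Phvul.008G209700) measured 0.476 FPKM in control against 3.85 FPKM in drought, with a log2 ratio of 1.72. ACD32 and the AT4G21870 ortholog were at least 4-fold higher, against 2.48% of all genes. In control ACD32 was thus at nearly the level of HSP21 and the AT1G52560 ortholog, and in drought it was far above both.

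None of these 3 genes is annotated with protein folding, and all carry response to heat. The AT4G21870 and AT2G27140 orthologs carry response to high light intensity and response to hydrogen peroxide as well. The HSP20 genes named by the study include both directions, with the genes annotated to the chloroplast or mitochondrion among those lower in drought. Both sets were chosen by direction, and the lower genes also as forms of these organelles, so nothing is read from this split.

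As further genes of protein folding and heat stress, 14 chaperones and regulators were picked here from those the study had called lower. In these libraries they are not independent evidence of direction. For HSP70, HSFA2 and FTSH6 the paper also reported lower levels in drought by semi-quantitative RT-PCR, a gel-based measure, with RNA from separate experiments. None of the 3 small heat shock protein genes was measured in that way. For a heat shock protein gene the paper reported no reduction in the cultivar Azufrado Higuera and a limited one in Negro Jamapa Plus. Of these 14 genes, 12 were at least 4-fold lower in drought, against 1.62% of all genes, and none was higher. Their median log2 ratio was −2.44, and that of the 3 small heat shock protein genes was −2.46. Both sets were chosen as genes called lower, so nothing is read from the count or from the closeness of the medians. Of the 14 genes, 11 carry response to heat and 9 carry all 4 shared terms.

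Among the chaperones of the HSP70 family, HSP70 was described above. HSP70B (Phvul.003G154800) measured 70.2 FPKM in control against 7.97 FPKM in drought, with a log2 ratio of −2.99. MTHSC70-2 (Phvul.006G199800), a mitochondrial HSP70, had 43.3 and 5.80 FPKM, with a log2 ratio of −2.71. HSC70-1 (Phvul.008G013000), a cytosolic HSP70, had 68.6 and 15.3 FPKM, with a log2 ratio of −2.09.

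HSP101 (Phvul.004G044100), a disaggregase that pulls proteins out of aggregates, was low throughout, at 2.71 FPKM in control and 0.233 FPKM in drought. It was 11.6-fold lower on the FPKM values, while its log2 ratio of −1.59 did not reach the 4-fold limit. The AT1G23100 ortholog (Phvul.002G095400), a GroES-like cochaperonin, had 91.5 and 22.3 FPKM, and its log2 ratio of −1.99 lay just short of the limit.

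The cochaperones ATERDJ3A (Phvul.008G095600), a J-domain protein of the endoplasmic reticulum, and ROF1 (Phvul.010G024500), a peptidyl-prolyl isomerase, had log2 ratios of −2.12 and −2.17. FTSH6 (Phvul.008G040800), a chloroplast protease that in Arabidopsis degrades HSP21 during recovery from heat, measured 22.3 FPKM in control against 0.503 FPKM in drought. Its log2 ratio of −3.96 was the lowest of the 14 genes. In control FTSH6 and HSP21 were of similar level, and in drought FTSH6 was below 1 FPKM while HSP21 was at 3.23 FPKM.

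HSFA2 (Phvul.009G078300), which in Arabidopsis activates small heat shock protein genes as a transcription factor, measured 6.18 FPKM in control against 0.398 FPKM in drought, with a log2 ratio of −2.36. HSFA6B (Phvul.001G154700) had 9.47 and 0.830 FPKM, and HSFB2B (Phvul.002G155300), of the class B factors that lack an activation domain, had 18.3 and 1.46 FPKM. Their log2 ratios were −2.52 and −2.97. MBF1C (Phvul.004G162100), a transcriptional coactivator of heat tolerance, had 19.7 and 3.20 FPKM, with a log2 ratio of −2.30. HSFA2, HSFA6B, HSP101 and FTSH6 were below 1 FPKM in drought, which no small heat shock protein gene was.

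**Figure D5:**
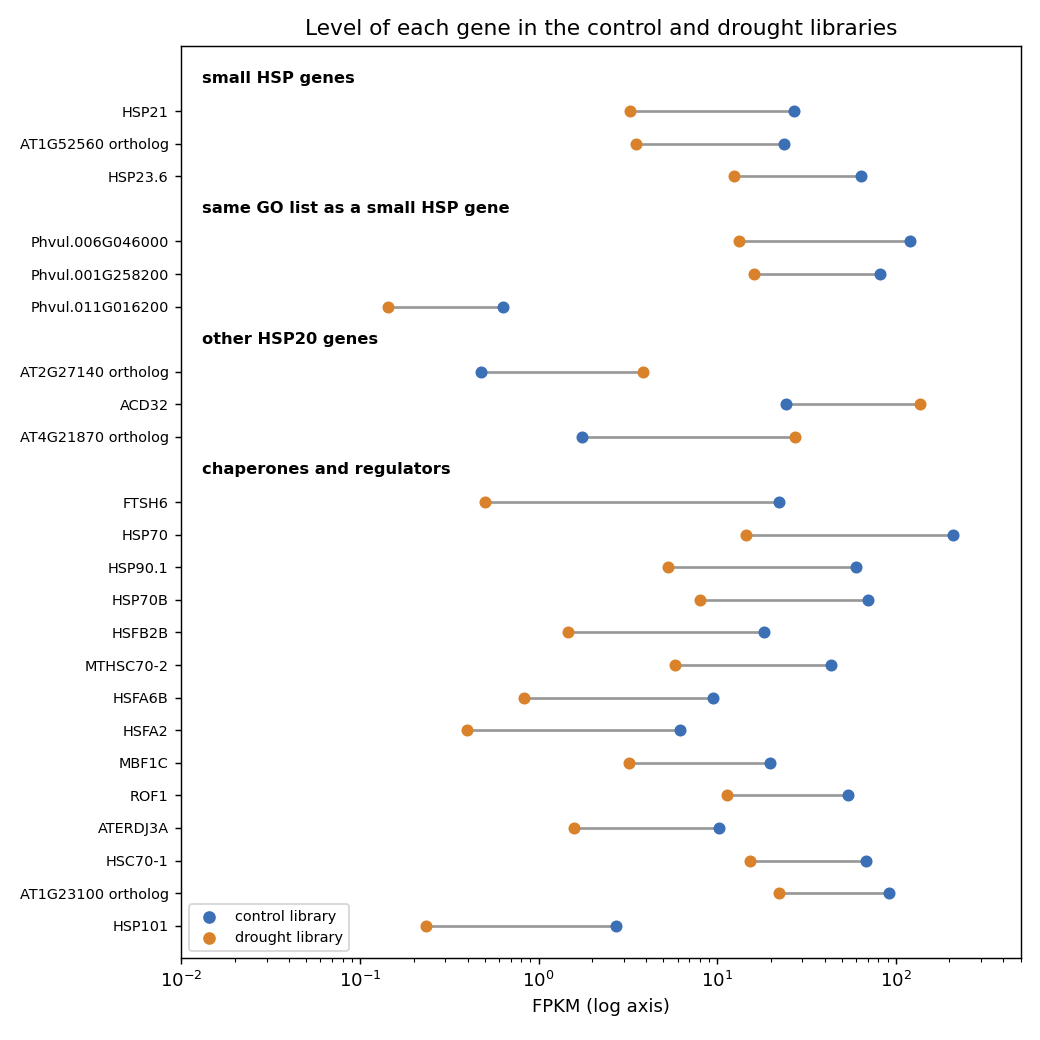
FPKM of each gene in the control library (blue) and the drought library (orange) on a log axis (x axis), 1 library per condition and 1 line per gene (y axis), in blocks for the small heat shock protein genes, the genes that repeat the GO list of one of them, the other HSP20 genes and the chaperones and regulators. Orange lies left of blue in all blocks but the other HSP20 genes, where ACD32 goes from 24.3 to 136 FPKM; HSP21 goes from 26.8 to 3.23 FPKM.

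The genes most like each of the 3 in level were sought over the 2 libraries, by the distance in log2(FPKM + 1), which with 2 values per gene is a description of levels and no sign of shared control. Nearest to HSP21 were Phvul.009G156300 (distance 0.077), Phvul.003G121900 (0.153) and the AT1G52560 ortholog (0.189). Nearest to HSP23.6 were Phvul.007G058500 (0.039), Phvul.001G037900 (0.049) and Phvul.009G075500 (0.068). Nearest to the AT1G52560 ortholog were Phvul.001G121900 (0.105), Phvul.001G129900 (0.112) and Phvul.001G112500 (0.130). Of these, 8 are not small heat shock protein genes, and none of the 8 carries response to heat or protein folding.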

How the data were processed

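Aerial tissue of Pinto Saltillo was analysed as 1 control and 1 drought library. The authors trimmed reads with Trimmomatic, aligned them to the G19833 genome with TopHat, assembled transcripts with Cufflinks and Cuffmerge, and estimated levels with Cuffdiff; the submitters' processing notes also name CASAVA 1.8.2 and FastQC. The deposited FPKM values are the authors' Cuffdiff estimates. The deposited fold changes, test statistics, p-values and q-values are the authors' own comparison and were not used. No other per-sample columns were present.

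Log2 ratios were computed with 1 added to each FPKM, over genes reaching 1 FPKM in 1 library or both, with a 4-fold limit of size (Python 3.11.15, pandas 2.3.3, NumPy 2.4.6), and the counting was tested on simulated data. No test fits 1 library per condition. Read counts are not in the table, and among 1027 genes below 0.15 FPKM in both libraries no step worth 1 read was found. The paper gives the total reads of each library, but reads per gene are unknown and intervals were not computed. GO terms were present for 90.3% of genes, and the list is cut at 1024 characters in 227 genes, 15 of them heat genes. None of the 3 genes shares its locus with another gene. Locus starts were raised by 1, since end minus start was a multiple of 3 in 583 of 691 loci under 400 bases. The identifiers carry the suffix 1.0, the methods cite annotation 2.1, and the genome build behind the positions is therefore unsettled; RefSeq names could not be matched.

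The genes and lists were chosen with earlier results of these data known. Genes named were the 3 genes, HSP20 genes at 10 FPKM or changed 4-fold, the listed chaperones and regulators, the 3 nearest patterns, the 3 lowest ratios of the heat term and the 2 neighbours on each side. The AT2G27140 ortholog and the genes with an identical GO list fall outside this rule. The HSP20 family was to be taken from RefSeq descriptions; none were in the reference used here, so the study's own 3 genes took their place, and the protein and promoter comparison was not made. Alternatives were pseudocounts of 0.1 and 0.01, scaling to the 75th percentile or a sum of 1000000, median centring, other filters and a 2-fold limit. The list of genes with the 4 shared terms, the removal of genes sharing a locus and the counts without the listed chaperones and regulators were added after the table was opened.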

Additional observations from a re-analysis of the deposited data

How the results depend on the processing

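No paired analysis was possible because each condition has 1 library. The 3 small heat shock protein genes were at least 4-fold lower under every pseudocount and scaling tried. Over those settings the log2 ratio ran from −3.05 to −2.55 for HSP21, from −2.76 to −2.30 for the AT1G52560 ortholog and from −2.37 to −2.16 for HSP23.6. With no replicate spread to use, a value was taken as moved when it shifted by over 1.5 times or crossed the 4-fold limit. With a pseudocount of 0.1 the median of the 14 chaperones and regulators became −3.10, 13 other heat genes and 2 other genes with the 4 terms were at least 4-fold higher, and 495 of all genes were lower and 1303 higher. With 0.01 that median became −3.31, 15 heat genes were higher, 29 genes with the 4 terms were lower and 3 higher, and 519 of all genes were lower and 1413 higher. A small pseudocount lets low genes pass the limit by construction. With a 2-fold limit 71 other heat genes were lower and 20 higher, 51 with the 4 terms lower and 4 higher, and 1298 of all genes lower and 2309 higher. Keeping only genes that reached 1 FPKM in control and in drought left 309 of all genes higher. Scaling, centring and removal of genes sharing a locus moved no value. Without the listed chaperones and regulators 14 other heat genes and 11 with the 4 terms were at least 4-fold lower. With a pseudocount of 0.01, HSP21 was the 15th lowest of the heat term, the AT1G52560 ortholog the 20th and HSP23.6 the 30th. These shifts in rank did not exceed 1.5 times and did not count as moved. Without the listed chaperones and regulators the ranks did move, to 6 for HSP21, 9 for the AT1G52560 ortholog and 13 for HSP23.6. Taking out listed genes with lower ratios shifts these ranks by construction.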

Other observations

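Genes with the 4 terms and 1 identical GO list that lie in a run on the chromosome, each at most 20000 bases from the last and with other genes between some of them, did not all have the same direction. There were 10 such runs with 28 genes in all, HSP23.6 and its neighbour being 1 of them, and the genes named here were chosen after their values were seen. On chromosome 2, from 39716064 to 39733169, 4 such genes had 1 identical list that includes heat acclimation. Phvul.002G231500 measured 8.40 FPKM in control against 1.48 FPKM in drought, and Phvul.002G231700 had 7.64 and 1.42 FPKM, whereas Phvul.002G231400 had 17.1 and 21.1 FPKM. Between Phvul.002G231500 and Phvul.002G231700 lies Phvul.002G231600, which carries response to heat but only 2 GO terms and measured 18.9 FPKM in control against 3.03 FPKM in drought, with a log2 ratio of −2.30. On chromosome 4, Phvul.004G137600 measured 23.57 FPKM in control against 123 FPKM in drought, with a log2 ratio of 2.34. With 1 added to FPKM it was the only gene of the 4 terms at least 4-fold higher in drought, and Phvul.004G138000 in the same run, with 3 other genes between, had 4.33 and 10.97 FPKM. The sequences of the genes in a run were not compared, and reads shared between them were not tested.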
